A study of Mus musculus with 12 samples.

Results

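The interferon regulatory factors (IRFs) and the signal transducers and activators of transcription (STATs) are the transcription factors through which cells answer interferons and related cytokines. Transcripts of 9 of these genes, Irf1, Irf2, Irf3, Irf5, Irf7, Irf8, Irf9, Stat2 and Stat3, were followed in lung endothelial cells (ECs) during metastatic colonization, out of 18193 genes measured. A gene's value was that of its brightest probe set among those with a single gene symbol, by the mean over the 12 arrays. No test result entered this choice, although a change in the metastatic groups shifts that mean. The cells came from NSG mice, an immunodeficient strain without mature T, B and natural killer cells, aged 6 to 8 weeks, and the study used only female animals. Control ECs were from healthy lungs, and the other groups were from lungs at week 1, 2 or 3 after MDA231-LM2 cells were given intravenously. These cells are a human breast cancer line derived from MDA-MB-231 for its lung metastasis, so the model joins human cancer cells to mouse vessels in a host with few lymphocytes. ECs were sorted as CD31+ cells that lacked the leukocyte antigens CD45 and CD11b, epithelial EpCAM, the PDGF receptors CD140a and CD140b, and GFP, the label of the cancer cells. There were 3 arrays in each of the 4 groups, called biological replicates in the labels, and the number of mice behind an array is not given in the sources used here. Values are log2 signals from the deposited table, risen and fallen mean a Benjamini–Hochberg adjusted p below 0.05 in limma, and the small number of arrays limits the precision.

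Type I interferons bind the receptor IFNAR, whose Janus kinases activate a complex called ISGF3. STAT2 and IRF9 are parts of ISGF3, which binds a DNA element named ISRE in many antiviral genes, and IRF7 is an induced factor that amplifies type I interferon production. IRF1 is induced through a different element, GAS, by interferon-γ and other inflammatory signals, and IRF2 can oppose it at shared sites. IRF3 and IRF5 are activated by phosphorylation downstream of nucleic acid sensors and Toll-like receptors, IRF8 is a lineage factor of myeloid cells, and STAT3 carries signals of interleukin-6 family cytokines. ECs line the vessels and respond to interferons and to interleukin-6 family cytokines. Activation of these factors is mainly a matter of protein modification, which transcript levels do not measure.

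The upstream sequences of the 4 genes on which the type I and Irf1 comparison rests are shown because both elements lie in such regions. They are from RefSeq (GRCm38.p6), in which all 9 genes matched, and run 5′ to 3′ on the gene's strand. Irf1 is shown at chr11:53769764-53770013 (plus strand), Stat2 at chr10:128270248-128270497 (plus strand), Irf7 at chr7:141266500-141266674 (minus strand) and Irf9 at chr14:55603735-55603984 (plus strand). All are bases upstream of a transcript start, and of the 250 bases of Irf7 only the 175 outside its annotated transcripts are printed. Capitals mark matches to the core of GAS or ISRE.
Irf1: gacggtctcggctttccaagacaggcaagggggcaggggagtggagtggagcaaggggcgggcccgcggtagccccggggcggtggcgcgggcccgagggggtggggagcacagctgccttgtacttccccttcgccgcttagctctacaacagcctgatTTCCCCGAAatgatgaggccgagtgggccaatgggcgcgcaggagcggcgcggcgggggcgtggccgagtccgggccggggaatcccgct
Stat2: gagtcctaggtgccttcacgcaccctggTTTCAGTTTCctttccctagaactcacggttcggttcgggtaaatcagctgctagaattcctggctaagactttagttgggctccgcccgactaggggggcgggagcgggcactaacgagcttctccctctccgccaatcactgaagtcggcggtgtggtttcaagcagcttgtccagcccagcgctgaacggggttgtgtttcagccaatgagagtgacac
Irf7: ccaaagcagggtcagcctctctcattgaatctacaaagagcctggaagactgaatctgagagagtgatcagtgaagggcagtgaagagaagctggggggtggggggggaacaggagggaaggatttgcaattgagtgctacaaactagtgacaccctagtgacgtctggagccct
Irf9: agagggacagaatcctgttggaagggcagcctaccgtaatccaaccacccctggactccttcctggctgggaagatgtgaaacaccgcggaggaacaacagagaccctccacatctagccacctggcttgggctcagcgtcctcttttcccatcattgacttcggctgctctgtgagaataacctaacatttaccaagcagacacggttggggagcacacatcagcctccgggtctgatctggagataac

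The core of GAS was searched as TTCNNNGAA and the core of ISRE as a pair of GAAA repeats with NN between them, on both strands, over 250 bases upstream of each start. Irf1 held a single match, to GAS, from base -90 to -82 before its start. Stat2 held a single match, to ISRE on the opposite strand, from base -222 to -213. Irf7 and Irf9 held no match, which says only that these letters are not in these windows. Among all 32851 RefSeq windows of this length, 7.02% held the GAS core and 2.98% the ISRE core. Of the other genes, Irf2 had a match to each core and Irf8 had matches to GAS at 2 places, and Irf3, Irf5 and Stat3 had none. The search covered all 250 bases of each window, also bases within the annotated span of the same gene (all of the Irf5 window), which are not printed. A match describes the letters and does not show that a factor binds there.

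Across the arrays, medians lay between 8.12 and 8.13, and 2 arrays of the same group correlated by 0.973 to 0.983. Pecam1, the gene of CD31, averaged 13.45 in control and 13.49 at week 3. At that week 0 of 15 pan-endothelial markers passed the test (3 had an unadjusted p below 0.05, beside 21.4% of all genes). Markers of cells that the sort excludes were nevertheless measured and moved. At week 3, 5 of 11 fibroblast markers fell, as did 2 of 11 mural, 6 of 10 alveolar and 2 of 10 airway epithelial markers. Of all genes, 2.63% fell at that week. The summed linear signal of the fibroblast markers was 33946 to 36716 in control, 21341 to 23809 at week 1, 14783 to 18874 at week 2 and 23924 to 28013 at week 3. The median change of pan-leukocyte markers was -0.50 at week 1, -0.51 at week 2 and 0.31 at week 3. The part of these transcripts in the values below was not tested. In bulk samples such as these, fewer cells of a type and less RNA per cell cannot be told apart.

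At week 3, 2 of the 9 genes had risen (Irf7 and Irf9) and Irf1 had fallen, whereas Stat2, Stat3, Irf2, Irf3, Irf5 and Irf8 did not pass the test by their brightest probe sets. Irf7, Irf9 and Irf1 each have only 1 probe set with a single gene symbol, so no second probe set could be compared. Of all genes, 2.38% rose and 2.63% fell at week 3. At week 2, only Irf7 of the 9 had risen, beside 0.104% of all genes, and none had fallen, beside 0.137%. At week 1, 0 of the 9 passed in limma, beside 0.0495% of all genes in either direction, and 2 (Irf7 and Irf9) had an unadjusted p below 0.05, beside 8.98%. The arrays did not overlap control for 3 of the 9 at week 1, 5 at week 2 and 4 at week 3, beside 16.1%, 17.7% and 30.0% of all genes. All 3 weeks were compared with the same control arrays, so these comparisons are not independent. The median log2 fold change of the 9 genes at week 3 was 0.13, beside 0.03 over all genes.

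**Figure D1:**
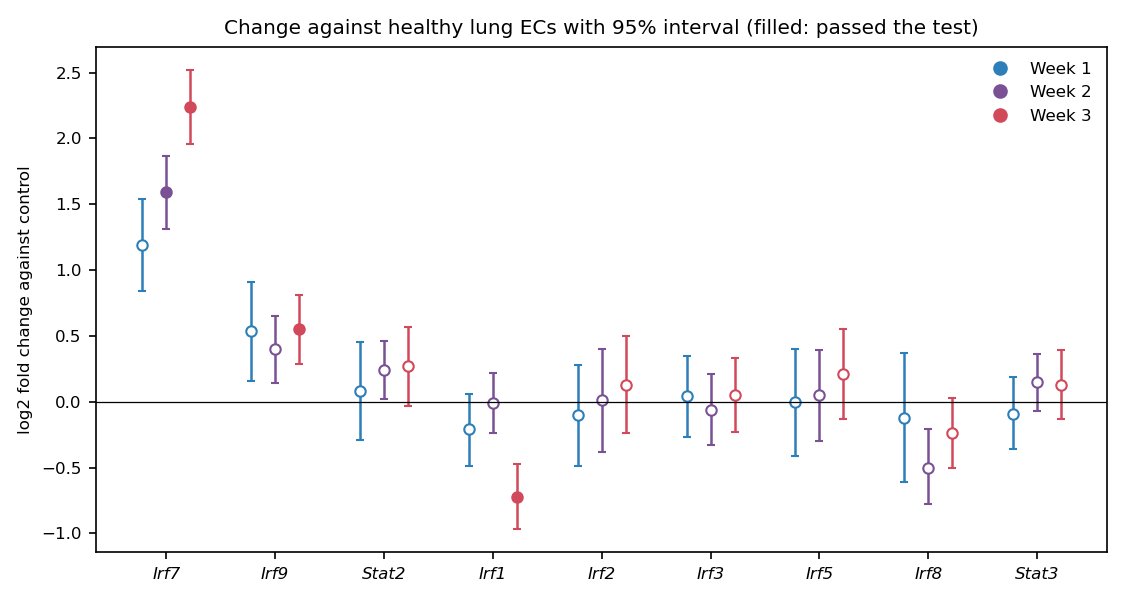
Log2 fold change against control (y axis) of the 9 genes (x axis) at weeks 1, 2 and 3, by colour; points are limma estimates, bars are 95% confidence intervals, and filled points passed the test, with 3 arrays per group. Irf7 lies above 0 at all 3 weeks and reaches 2.24 at week 3, Irf9 lies at 0.54, 0.40 and 0.55, and Irf1 lies near 0 at week 2 and at -0.72 at week 3.

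Irf7, the interferon-induced amplifier, gave the largest change of the 9 genes at each week. Its log2 signals were 9.81, 9.64 and 9.97 in control and 10.86, 11.21 and 10.92 at week 1. Week 2 gave 11.34, 11.35 and 11.49, and week 3 gave 12.07, 12.01 and 12.06. Every array of a later week lay above every array of the week before it, with no overlap among the groups, and the week 3 arrays lay closest together. At week 3 the signal was 4.72-fold that of control (2.24 on the log2 scale, with a standard error of 0.12 and an adjusted p of 0.000562), and at week 2 it was 3.00-fold (1.59 on the log2 scale, with a standard error of 0.12 and an adjusted p of 0.0207). At week 1 it was 2.28-fold, and this log2 difference of 1.19 (standard error 0.15) was just short of the threshold with an adjusted p of 0.0529. The week 1 result depended on the settings, since it passed when all 4 groups shared an estimate of the spread (adjusted p = 0.00360) and in 3 other alternatives. Among these were the omission of dim probe sets and the mean of a gene's probe sets. Both change what is tested together with Irf7 and leave its own signals unchanged. Irf7 was 0.65 higher at week 3 than at week 2 (adjusted p = 0.0290) and 1.05 higher than at week 1 (adjusted p = 0.0256), beside 1.35% and 0.649% of all genes that rose in these comparisons. Between weeks 1 and 2 the difference of 0.40 did not pass (95% interval 0.09 to 0.71, adjusted p = 0.582), and 0 of the 9 genes passed in limma, as did 0% of all genes; only Irf7 had an unadjusted p below 0.05, beside 6.55% of all genes. Only the week 3 rise over control passed whichever array was left out (adjusted p from 0.00449 to 0.00666). The week 2 rise passed only without week 2 replicate 2, with adjusted p-values between 0.0455 and 0.135 over the 6 omissions.

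**Figure D2:**
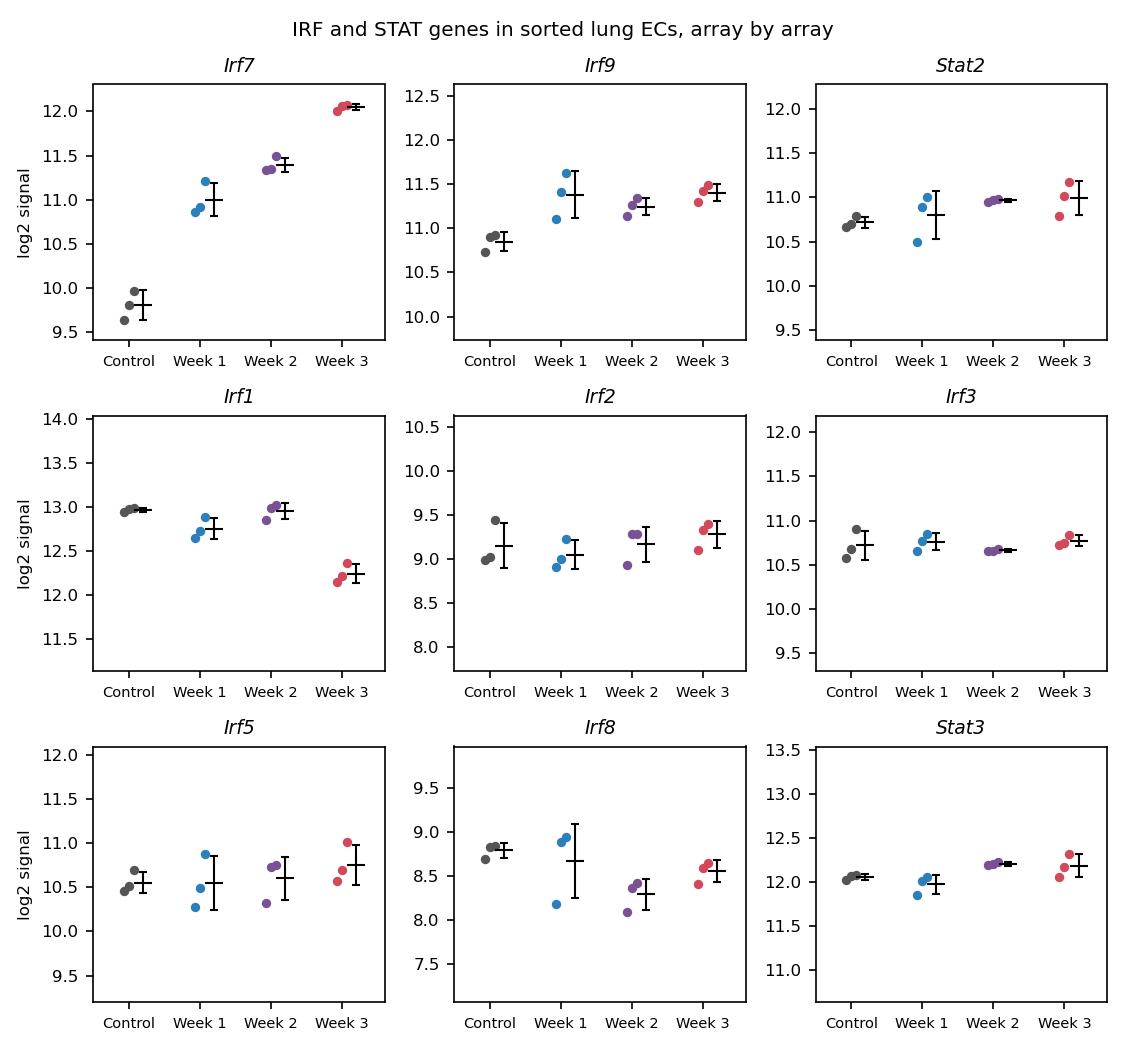
Log2 signal (y axis) of each of the 9 genes in the 12 arrays, in a panel per gene with the same span of log2 units; coloured points are arrays in ascending order within a group, and the black bar beside them is the mean ± SD of 3 arrays. Irf7 climbs from 9.64 to 9.97 in control to 12.01 to 12.07 at week 3, Irf1 is lowest at week 3 with 12.15 to 12.36, and Irf2, Irf3 and Irf5 overlap control at every week.

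Irf9, the DNA-binding part of ISGF3, was higher than control at all 3 weeks but rose past the threshold at week 3 alone. Control arrays read 10.90, 10.73 and 10.92, and those of week 1 read 11.11, 11.41 and 11.63. The week 2 arrays read 11.14, 11.34 and 11.26, and those of week 3 read 11.30, 11.49 and 11.42. All 9 arrays of the metastatic lungs lay above all 3 control arrays, and the weeks overlapped each other. At week 3 the difference from control was 0.55 (1.47-fold, standard error 0.11, adjusted p = 0.0426), beside 0.54 at week 1 (standard error 0.16, adjusted p = 0.326) and 0.40 at week 2 (standard error 0.11, adjusted p = 0.268). Unlike the order of Irf7, that of Irf9 did not follow time, and week 3 differed from week 1 by 0.02 (95% interval -0.35 to 0.39) and from week 2 by 0.15 (95% interval -0.10 to 0.40). The week 3 call was lost without any 1 of the 6 arrays (adjusted p from 0.0741 to 0.123).

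Stat2, the other type I member, did not pass the test at any week. Control gave 10.66, 10.70 and 10.79, and week 1 gave 10.49, 11.01 and 10.89. At week 2 the arrays read 10.95, 10.98 and 10.97, then 10.79, 11.17 and 11.02 at week 3. The week 2 arrays lay together above control, whereas week 1 replicate 1 lay below every control array and week 3 replicate 1 lay level with the highest of them. The differences from control were 0.08 at week 1 (95% interval -0.29 to 0.45), 0.24 at week 2 (0.02 to 0.46) and 0.27 at week 3 (-0.03 to 0.57), with adjusted p-values of 0.911, 0.424 and 0.290. Its second probe set gave 0.34 at week 3 (adjusted p = 0.368).

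Irf1, whose protein drives antigen presentation and other interferon-γ target genes, went the other way. Its log2 signals were 12.99, 12.94 and 12.97 in control and 12.88, 12.73 and 12.65 at week 1. Week 2 gave 12.99, 13.02 and 12.85, whereas week 3 gave 12.22, 12.36 and 12.15. Week 2 overlapped control, week 1 lay just under it, and all 3 week 3 arrays lay below the other 9 arrays. At week 3 the log2 signal fell by 0.72, with a standard error of 0.11 and an adjusted p of 0.0153, which left 0.606 of the control signal. The differences at week 1 (-0.21, 95% interval -0.49 to 0.06) and week 2 (-0.01, 95% interval -0.24 to 0.22) did not pass, with adjusted p-values of 0.652 and 0.979. Irf1 also fell between week 2 and week 3, by 0.71 (standard error 0.11, adjusted p = 0.0309), beside 0.748% of all genes that fell in that comparison and 1.35% that rose, and this call was lost without any 1 of the 6 arrays (adjusted p from 0.0578 to 0.107). The difference of -0.51 between week 3 and week 1 had an adjusted p of 0.144, and 0.192% of all genes fell there. The fall against control passed only without week 3 replicate 2 among the 6 omissions (adjusted p from 0.0336 to 0.0570).

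Transcripts of the tissue dissociation response were lowest in the same group as Irf1. Of 25 transcripts known to be induced when tissue is dissociated, such as Fos, Egr1 and the Hsp70 genes, 8 fell at week 3 and 0 rose, with a median log2 fold change of -0.41. Of all genes, 2.63% fell and 2.38% rose at that week, with a median of 0.03. The count of 8 became 3 without control replicate 1 or 2, 5 without control replicate 3 and 4 without week 3 replicate 3, and was 14 with all groups in 1 fit. Their mean relative to control was -0.57 to -0.40 in the week 3 arrays, -0.37 to -0.18 at week 1 and -0.14 to 0.01 at week 2. The groups stood in the same order as for Irf1, with week 3 lowest, then week 1, then week 2. The log2 difference between 3′ and 5′ control probe sets for Gapdh, which grows as RNA degrades, was 0.37 to 0.69 in control, 0.42 to 0.53 at week 1, 0.30 to 0.41 at week 2 and 0.24 to 0.40 at week 3. Its mean was 0.52 in control, 0.47 at week 1, 0.35 at week 2 and 0.31 at week 3. The part of these measures in the fall of Irf1 was not tested.

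The type I genes and Irf1 were then set against each other within each array, as the mean log2 signal of Irf7, Irf9 and Stat2 less that of Irf1, relative to control. Since the genes were chosen with earlier results known, this is a description without a test. The difference was 0.00 ± 0.09 in control (SD, n = 3), 0.81 ± 0.31 at week 1, 0.75 ± 0.13 at week 2 and 1.74 ± 0.10 at week 3. Every array of the metastatic lungs lay above the highest control array at 0.10. The weeks 1 and 2 overlapped, with 0.45 to 1.00 and 0.66 to 0.90, and week 3 lay above both with 1.68 to 1.85. Irf7 supplied the largest share: Irf7 less Irf1 was 2.96 ± 0.14 at week 3, Irf9 less Irf1 was 1.27 ± 0.10 and Stat2 less Irf1 was 0.99 ± 0.16. For Irf7, the pair was already at 1.40 ± 0.25 at week 1 and 1.60 ± 0.17 at week 2, when Irf1 had not passed the test. For Stat2, most of the week 3 difference was the drop of Irf1. The spread at week 1 came from replicate 1, which was lowest of its group for Irf7, Irf9 and Stat2 and highest for Irf1.

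**Figure D3:**
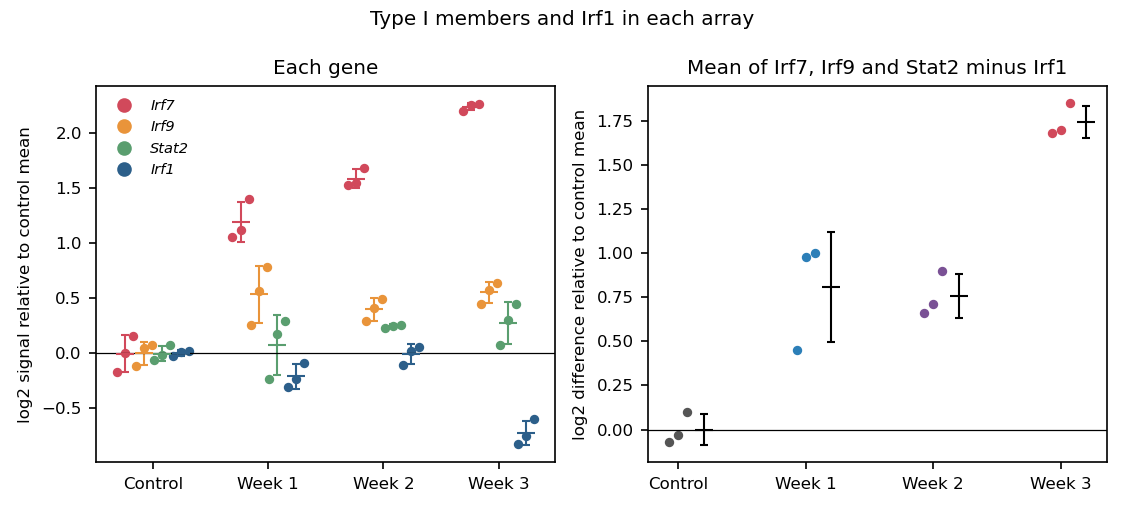
Left, log2 signal of Irf7, Irf9, Stat2 and Irf1 relative to each gene's control mean (y axis) in the 4 groups (x axis); right, the mean of the 3 type I genes minus Irf1, also relative to control. Points are arrays in ascending order and bars are mean ± SD of 3 arrays; the right panel steps from 0.00 in control to 0.81 and 0.75 at weeks 1 and 2 and 1.74 at week 3.

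Irf3 and Irf5, the factors activated downstream of sensors and Toll-like receptors, did not pass the test in any of the 6 comparisons. Irf3 ranged from 10.58 to 10.90 over all 12 arrays and differed from control by 0.05 at week 3 (95% interval -0.23 to 0.33, adjusted p = 0.860). Its other 3 probe sets gave 0.23, -0.42 and -0.25 at week 3, none past the threshold, so the probe sets of Irf3 differ in sign, and the probe set used carries a suffix (_x_at) for probes that may match other transcripts. Irf5 ranged from 10.28 to 11.01 and differed from control by 0.21 at week 3 (95% interval -0.13 to 0.55, adjusted p = 0.469), and by 0.08 in its second probe set. Irf2, the antagonist of IRF1, ranged from 8.91 to 9.44 and differed by 0.13 at week 3 (95% interval -0.24 to 0.50, adjusted p = 0.700). Irf2 is measured by a single probe set, whose suffix (_s_at) marks probes shared with other transcripts.

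Irf8, the myeloid lineage factor, was low at week 2 without passing the test. Its control arrays read 8.84, 8.83 and 8.69, beside 8.88, 8.94 and 8.18 at week 1. The week 2 arrays read 8.09, 8.42 and 8.36, and those of week 3 read 8.65, 8.59 and 8.41. On this probe set the arrays of weeks 2 and 3 lay below all control arrays, and week 1 was split, with replicate 3 far below its other arrays. The difference at week 2 was -0.50 (standard error 0.12), with an unadjusted p of 0.00439 and an adjusted p of 0.221, and the second probe set gave -0.42. At week 3 it was -0.24 (95% interval -0.50 to 0.03, adjusted p = 0.297), whereas the second probe set gave -0.08 and overlapped control. Of 10 pan-leukocyte markers, 0 passed the test in limma at weeks 1 and 2. At these weeks 4 and 6 had an unadjusted p below 0.05, beside 8.98% and 10.5% of all genes. The summed linear signal of these markers was 5640 to 7442 in control, 4429 to 5926 at week 1, 4493 to 5798 at week 2 and 7599 to 8393 at week 3. The groups of weeks 1 and 2 overlapped control, and that of week 3 lay above it. All 10 were below control on average at weeks 1 and 2, and 8 were above it at week 3, when Fcer1g alone passed. The median differences of 9 lymphocyte markers were 0.07, 0.03 and 0.05 at weeks 1, 2 and 3, and those of 8 neutrophil markers were -0.13, 0.08 and 0.31, with no call. Of 15 macrophage and monocyte markers, C1qa and C1qb rose at week 3 and Cd68 fell, and their summed signal was 16188 to 17607 in control, 11570 to 15242 at week 1, 10666 to 14424 at week 2 and 16168 to 18366 at week 3. Of 9 dendritic cell markers, only Batf3 rose. The scale has no true zero, so no marker could be called absent. The part of leukocyte transcripts in the values of Irf8, Irf5 and Irf7 was not tested.

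Stat3 gave different answers by probe set. On the probe set with the highest mean, the log2 signals were 12.07, 12.08 and 12.02 in control and 12.01, 12.06 and 11.85 at week 1. At week 2 the arrays read 12.23, 12.20 and 12.19, then 12.32, 12.17 and 12.06 at week 3. Week 2 lay just above all control arrays and week 3 reached back to them, with a difference of 0.15 at week 2 (adjusted p = 0.629) and 0.13 at week 3 (95% interval -0.13 to 0.39, adjusted p = 0.579). The second brightest and the dimmest probe sets differed from control by 0.19 and 0.14 at week 3. By contrast, the remaining probe set read 10.75, 10.92 and 10.87 in control and 10.30, 9.83 and 9.65 at week 3, a fall of 0.92 (standard error 0.17, adjusted p = 0.0350). It was also below control in every array of weeks 1 and 2, where its differences of -0.50 and -0.48 did not pass. Which stretch of the transcript each probe set reads is not given in the files used here, so no direction is given for Stat3 as a gene.

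**Figure D4:**
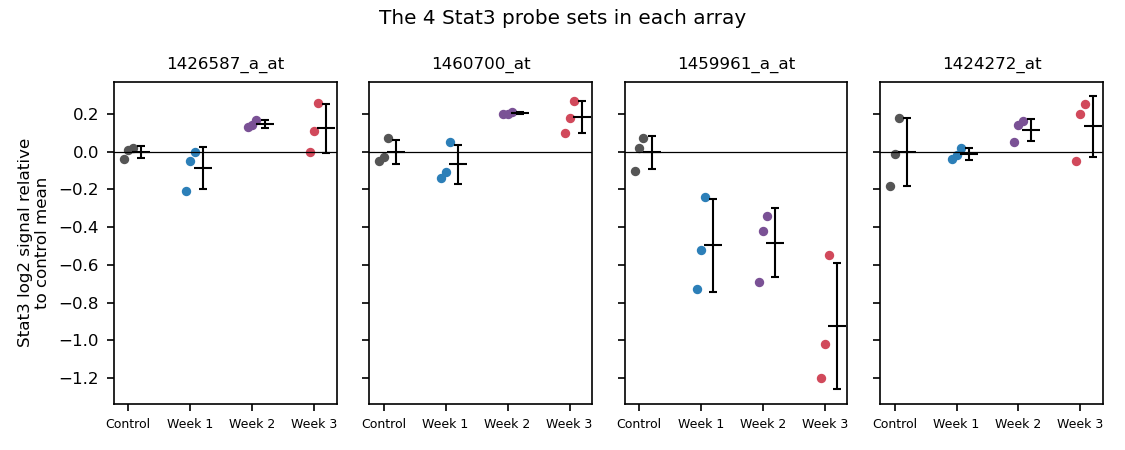
Log2 signal of the 4 Stat3 probe sets (panels, in order of mean signal) relative to each one's control mean (y axis) in the 4 groups (x axis); points are arrays in ascending order and bars are mean ± SD of 3 arrays. The third panel has a mean of -0.92 at week 3, while the others have means of 0.13, 0.19 and 0.14.

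Over the 12 arrays, Irf7 correlated with Irf9 (r = 0.78) and Stat2 (r = 0.63) and inversely with Irf1 (r = -0.72). These values describe arrays that fall into 4 groups, and after each group's mean was removed they were 0.33, 0.47 and -0.30. For Irf9 and Stat2, in contrast, the value was not lower for the deviations (r = 0.65 over all arrays and 0.74 for the deviations). Irf5 and Stat2 also varied together, with 0.70 in both cases. Week 1 replicate 1 was the lowest array of its group for Irf9 (11.11), Stat2 (10.49) and Irf5 (10.28). How far these values rest on that array was not tested. The genes whose signal followed Irf7 most closely over the 12 arrays were Zbp1 (r = 0.986), Oas2 (0.979), Ifi202b (0.976), H2-Q5 (0.972) and Ifit3 (0.971). After each group's mean was removed, these values were 0.65, 0.43, 0.15, 0.81 and 0.53. All 5 genes rose at week 3, by 1.10 (H2-Q5) to 2.48 (Ifi202b), a direction that follows from picking them by likeness to Irf7 over the same arrays. H2-Q5 and Ifi202b belong to families of near-identical genes that a probe set may not separate. Those closest to Irf1 were Rprml (0.968), Mllt6 (0.967), Aard (0.965), Plk3 (0.957) and Phf13 (0.955), with 0.43 (Phf13) to 0.69 (Mllt6) for the deviations. They fell by 0.47 (Mllt6) to 0.84 (Phf13) at week 3, which likewise follows from the choice. Those closest to Irf8 were Armc4 (0.909), Nxn (0.851), Myo9b (0.844), Ptpra (0.844) and Plcg1 (0.841), with 0.72 (Plcg1) to 0.94 (Ptpra) for the deviations. None of these genes passed at week 3.

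Upstream of these factors, transcripts of ligands and receptors showed no call. Of 10 interferon genes measured, 0 passed in limma in any comparison, and none had an unadjusted p below 0.05. Their summed linear signal was only 1240 to 1480 in control and 1366 to 1496 at week 3. Ifna9 and Ifna5, with the smallest p-values at week 3, averaged 6.98 and 7.32 in control, below the array medians of 8.12 to 8.13. At so low a signal, the lack of calls does not show that these transcripts were unchanged. Ifnb1, the interferon-β gene, differed by 0.12 at week 3 (95% interval -0.16 to 0.40) and Ifng, the interferon-γ gene, by -0.07 (-0.36 to 0.23). Of 15 receptor and Janus kinase genes, 0 passed at week 3, and 5 had an unadjusted p below 0.05, beside 21.4% of all genes. The type I receptor chains differed by 0.30 (Ifnar1, adjusted p = 0.227) and 0.09 (Ifnar2), and the interferon-γ receptor chains by 0.05 (Ifngr1) and -0.09 (Ifngr2). The kinases Jak1, Jak2 and Tyk2 differed by 0.05, 0.03 and -0.11. The smallest p-values of this list belonged to Osmr, the oncostatin M receptor, at 0.38 (adjusted p = 0.0898) and Il6ra, the interleukin-6 receptor, at -0.68 (adjusted p = 0.0923). Of 10 adaptors and kinases that lead to IRF3, IRF5 and IRF7, Sting1, the adaptor of cytosolic DNA sensing, rose by 1.39 at week 3 (standard error 0.15, adjusted p = 0.00592) and the other 9 did not pass. Sting1 had means of 8.52 in control, 8.63 at week 1, 8.85 at week 2 and 9.91 at week 3, and was also 1.06 higher at week 3 than at week 2 (adjusted p = 0.0193).

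Genes known as targets of ISGF3 rose widely. Of 33 measured, 24 rose at week 3 and 0 fell, beside 2.38% and 2.63% of all genes. The median log2 fold change was 0.88 beside 0.03 over all genes, and all 33 were above control on average at each week. The largest rises were Rsad2 (2.72, standard error 0.16), which encodes the antiviral enzyme viperin, Mx1 (2.65, standard error 0.12), an antiviral GTPase, Zbp1 (2.40, standard error 0.12), a nucleic acid sensor, and Ifi27l2a (2.33, standard error 0.15). At week 1 there were 2 calls, Oas1a (1.56) and Ifi27l2a (1.59), and at week 2 there were 10, while the medians of 0.67 and 0.64 were alike. In the comparison of week 3 with week 2, 6 of the 33 rose, with a median of 0.38. As for Irf7, the arrays lay above control by week 1 and were highest at week 3.

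Genes known as targets of Irf1 and interferon-γ also rose at week 3, when Irf1 itself had fallen. Of 28 measured, 10 rose and 0 fell, beside 2.38% and 2.63% of all genes. The median was 0.46, beside 0.03 over all genes, and 6 rose without control replicate 2. They included the chemokine genes Cxcl10 (2.77, standard error 0.13) and Cxcl9 (1.84, standard error 0.13), the MHC class I transactivator Nlrc5 (1.57, standard error 0.18) and Cd274 (1.34, standard error 0.12), which encodes PD-L1. At week 1, 0 of 28 passed in limma, although 14 had an unadjusted p below 0.05, beside 8.98% of all genes. At week 2 Cxcl10 (2.07) and Cxcl9 (1.68) passed. The mean of this list relative to control was 0.14 to 0.32 in the week 1 arrays, 0.34 to 0.43 at week 2 and 0.55 to 0.63 at week 3, so the groups did not overlap and stood in the order of time, which is not the order of Irf1. Many genes of this list answer type I interferon too, and the lists do not separate the 2 inputs.

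**Figure D5:**
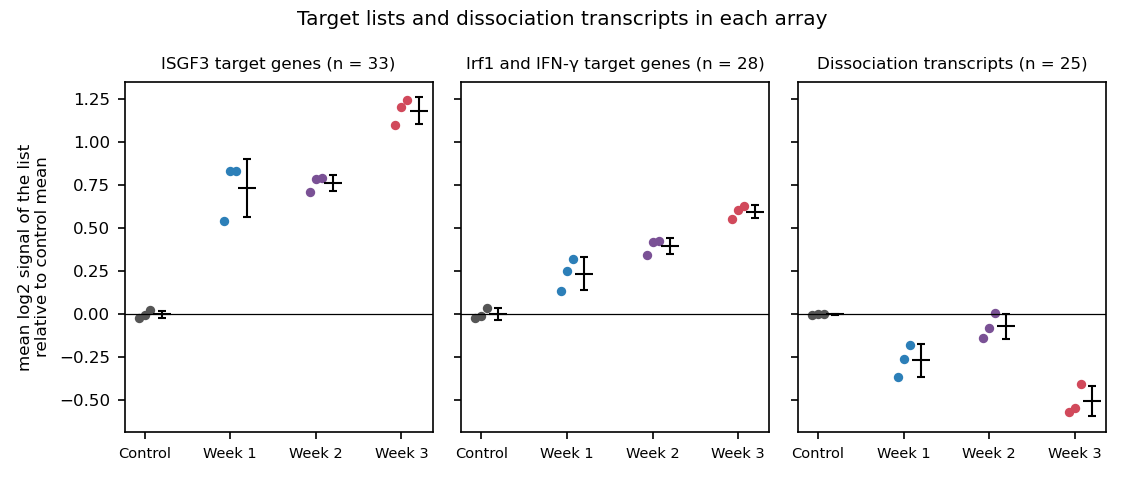
Mean log2 signal of 3 gene lists relative to control (y axis) in the 4 groups (x axis): ISGF3 targets, Irf1 and interferon-γ targets, and transcripts induced by dissociation, with the number of genes above each panel. Points are arrays in ascending order and bars are mean ± SD of 3 arrays; both target lists are highest at week 3 (1.10 to 1.25 and 0.55 to 0.63) and the dissociation transcripts are lowest there (-0.57 to -0.40).

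Of 18 genes known as STAT3 targets, 4 rose at week 3 and Fos fell, beside 2.38% and 2.63% of all genes. The median was 0.24, beside 0.03 over all genes. The rises were Lrg1 (1.94, standard error 0.18), a secreted glycoprotein of vessels, Serpina3n (1.49, standard error 0.32), a protease inhibitor of the acute phase, Myc (1.36, standard error 0.15) and Timp1 (1.01, standard error 0.17), an inhibitor of matrix metalloproteinases. Fos (-0.53, adjusted p = 0.0464) is also among the dissociation transcripts, and its call was lost without any 1 of the 6 arrays. The rises numbered 2 without control replicate 1 or any 1 of the week 3 arrays. At weeks 1 and 2, 0 of 18 passed in limma, with 3 and 6 at an unadjusted p below 0.05, beside 8.98% and 10.5% of all genes. At week 1, 13 of the 18 were below control on average (median -0.15), and at week 2, 12 were above it (median 0.08). Of 16 negative regulators, Usp18, which restrains signaling at IFNAR and is also an ISGF3 target, rose by 2.01 (standard error 0.12, adjusted p = 0.000877). Cish, an inhibitor induced by STAT5, fell by 0.86 (standard error 0.18, adjusted p = 0.0488), and the other 14 did not pass. For comparison, of 23 genes of the TNF and NF-κB response, Relb alone rose (0.78, standard error 0.13), and the median was -0.10. The list moved in both directions, from -0.86 to 0.78, and 9 of the 23 had an unadjusted p below 0.05, beside 21.4% of all genes. Of 5 other IRF and STAT genes measured, 0 passed in limma at any week by their brightest probe sets. At week 3 none had an unadjusted p below 0.05, beside 21.4% of all genes.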

How the data were processed

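Sorted lung ECs were profiled on Affymetrix mouse genome arrays, 3 per group. The deposited table holds log2 signals by probe set and array, made by the authors with robust multiarray average (background correction, quantile normalization and summary of probes), per the methods of the study, and were used as deposited. Of 45101 probe sets, 64 array controls were set aside; 34945 carry 1 gene symbol, which gave 18193 genes, and a gene's brightest such probe set over the 12 arrays stood for it. Groups were taken from the labels and compared in pairs with limma 3.58.1 in R 4.3.3 (default settings), with Benjamini–Hochberg adjustment over 45037 probe sets and a threshold of 0.05. P-values set the difference between groups against the spread between these arrays, which need not be the spread between mice.

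The 9 genes and all gene lists were chosen with earlier results of these data known. Lists were written from general knowledge, and some of their genes are not reported here. Named genes are the 9, up to 4 genes per list that passed at week 3 with the largest changes (or 2 with the smallest p), the interferon receptor chains and kinases, the 5 most correlated genes of Irf7, Irf1 and Irf8, and genes of the sort. The interferon-β and interferon-γ genes, the calls in counts of 5 or fewer and the examples of other cell markers were named after their values were seen.

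Alternatives were a fit of all 4 groups, a replicate block, omission of each array, renewed quantile normalization, median centring, a filter that kept probe sets brighter than the overall median in 3 or more arrays, no probe sets with _x_at or _s_at suffixes, the mean of a gene's probe sets, and a trended and robust variance. Summaries and figures used Python 3.11.15, pandas 2.3.3, numpy 2.4.6 and matplotlib 3.10.9.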

Additional observations from a re-analysis of the deposited data

Results flagged for a closer look

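The change from control differed between weeks in 3 results, as a direct test of the later against the earlier week showed. Irf7 was 1.05 higher on the log2 scale at week 3 than at week 1 (standard error 0.13, limma adjusted p = 0.0256) and 0.65 higher than at week 2 (standard error 0.09, adjusted p = 0.0290). Irf1 differed by -0.71 between week 3 and week 2 (standard error 0.11, adjusted p = 0.0309). In each of these comparisons, all 3 arrays of week 3 lay on the same side of all 3 arrays of the earlier week. With 3 arrays per group, single arrays were not tested as outliers.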

How the results depend on the processing

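No call changed direction under any alternative run, where a sign change between values that both missed the threshold was not counted as a reversal. The rise of Irf7 at week 3 against control passed in all of them. For single genes, 705 alternative values kept their side of the threshold, 39 lost a call and 6 gained one. The 705 are mostly of genes that did not pass in the reported fit and so had no call to lose. Every other call of the 9 genes was lost with the replicate block and without some of the arrays. Over all genes, the calls against control numbered 9 at week 1, 44 at week 2 and 912 at week 3, and over the alternatives 0 to 188, 0 to 134 and 330 to 1426 (378 at week 3 with the replicate block).

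At week 1, 1 of the 9 genes (Irf7) rose with all groups in 1 fit (adjusted p = 0.00360), without dim probe sets (0.0266), with the mean of a gene's probe sets (0.0157) and under a robust, trended variance (0.00885), where 0 had risen in the reported fit. At week 3 against week 1, 1 gene (Irf1) fell with all groups in 1 fit (adjusted p = 0.0260) and under a robust, trended variance (0.0137). Of the dissociation transcripts, 14 fell at week 3 under each of these 2 fits in place of 8, and 2 STAT3 targets fell with all groups in 1 fit.

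With arrays left out in turn, the risen genes of the 9 numbered 0 to 1 at week 2, 1 to 1 at week 3, 0 to 1 at week 3 against week 1 (Irf7, kept only without week 1 replicate 2) and 0 to 0 at week 3 against week 2. The fallen numbered 0 to 1 at week 3 and 0 to 0 at week 3 against week 2. At week 3, 16 to 20 ISGF3 targets and 6 to 8 Irf1 targets rose, 2 to 3 STAT3 targets rose and 0 to 0 fell, and 3 to 6 dissociation transcripts fell. The type I genes less Irf1 stood at 0.72 to 0.99 at week 1, 0.68 to 0.80 at week 2 and 1.69 to 1.79 at week 3. These fits have fewer arrays.

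The replicate numbers gave no sign of pairing the arrays: deviations of same-numbered arrays from their group means correlated by -0.10 to 0.06, and 5 of 18 correlated best with their own number. With 3 arrays per group, this cannot exclude a pairing. With the replicate block, 0 of the 9 rose at week 2 (Irf7, adjusted p = 0.0889). At week 3, 1 rose (Irf7), with Irf9 at 0.127, and 0 fell, with Irf1 at 0.0664. With the block, 0 rose at week 3 against week 1 (Irf7, 0.108), and 0 rose and 0 fell at week 3 against week 2 (Irf7, 0.104; Irf1, 0.0949). At week 3 the block left 6 Irf1 targets risen, 0 STAT3 targets fallen and 5 dissociation transcripts fallen.

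Irf2 has no value without _s_at probe sets, and Irf3 is then read from a different probe set. The number of arrays limits small changes, as the 95% interval of Stat2 at week 3 (-0.03 to 0.57) shows.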

Other observations

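Stat5a, a STAT gene outside the 9, showed a pattern over weeks that its probe sets shared in part. Its brightest probe set had a log2 difference of -0.45 at week 3 against control (adjusted p = 0.248) and -0.63 against week 2 (adjusted p = 0.136). The other probe set read 10.16, 10.12 and 10.85 in control, 9.42, 9.35 and 9.51 at week 1, 10.54, 10.25 and 10.30 at week 2, and 9.55, 9.70 and 9.42 at week 3. Weeks 1 and 3 lay below all arrays of control and week 2, and the fall of 0.81 from week 2 to week 3 passed the test (standard error 0.13, adjusted p = 0.0336). The differences of -0.95 at week 1 and -0.82 at week 3 against control did not pass (adjusted p = 0.151 and 0.0787). This probe set was singled out after its values were seen.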
